A study of Mus musculus with 4 samples.

Results

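The genes described here make cholesterol and fatty acids or control that synthesis. The set holds 32 genes, chosen by name for their known roles and found on the array by the gene name of the probe, with Msmo1 under its older name Sc4mol. They are 32 of 27729 genes named on the array, and all 32 are among the 18436 genes with a probe bright enough to test. By role, 10 genes act in the early sterol steps from acetoacetyl-CoA to lanosterol and 8 in the late sterol steps from lanosterol to cholesterol. Another 8 are lipogenic, meaning that they make, lengthen or desaturate fatty acids, and 6 are regulators or carry sterol.

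The cells were cultured spermatogonial stem cells, which renew themselves and give rise to sperm, from C57/BL6 x DBA/2 F1 mice with the age label day 5. Control cultures stayed in a serum-free medium whose growth factors were GDNF at 40 ng/ml and FGF2 at 5 ng/ml, both known to sustain these cells. Treated cultures were kept for 12 h without FGF2 and with SU5402, a blocker of the FGF receptor kinase, so withdrawal and inhibitor act together and cannot be told apart. GDNF at 40 ng/ml is given for all 4 arrays, FGF2 at 5 ng/ml for the control only. Each of 4 two-colour arrays held 1 treated sample in green (Cy3) and 1 control sample in red (Cy5). The dyes were never swapped, so a gene-specific dye effect and the treatment cannot be told apart. Of 41174 probes, 26613 to 28496 per array gave a signal clear of background for the treated sample and 25533 to 27891 for the control sample. The log2 ratios of any pair of arrays correlated over the tested genes with r between 0.906 and 0.948, a description, since genes are not independent.

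Cholesterol synthesis starts with acetyl-CoA, passes through mevalonate and squalene to lanosterol, the first sterol, and ends with a series of demethylations, reductions and isomerisations. Fatty acid synthesis branches from the same acetyl-CoA. Both are switched on by the SREBP transcription factors, encoded by Srebf1 and Srebf2. SREBP precursors sit in the endoplasmic reticulum with the sterol sensor SCAP, and INSIG proteins hold the complex there when sterols are plentiful. SREBPs bind sterol regulatory elements and commonly work with the factors NF-Y, which binds CCAAT, and Sp1, which binds the GC-rich box CCGCCC. In the testis, cholesterol also feeds steroid hormone synthesis, and late sterol intermediates are known as meiosis-activating sterols.

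The promoters of Tm7sf2 and Ebp, the largest rises, are printed because they hold the CCAAT box found upstream of every late sterol gene, and that of Hmgcs1 because it alone held the sterol regulatory element core. They are RefSeq sequence of build GRCm38.p6, the 250 bases before the start site, written from 5′ to 3′ on the strand of the gene. Capitals mark the letters CCAAT on either strand, which read ATTGG on the other strand, and the sterol regulatory element core TCACNCCAC. The Tm7sf2 window is chr19:6067851-6068100 on the minus strand, with the box starting 47 bases before the start site. For Ebp it is chrX:8193513-8193762 on the minus strand, with boxes starting 170 and 55 bases before the start. For Hmgcs1 it is chr13:119690101-119690350 on the plus strand, with the element starting 137 bases before the start and boxes starting 237, 176 and 45 bases before it.
Tm7sf2: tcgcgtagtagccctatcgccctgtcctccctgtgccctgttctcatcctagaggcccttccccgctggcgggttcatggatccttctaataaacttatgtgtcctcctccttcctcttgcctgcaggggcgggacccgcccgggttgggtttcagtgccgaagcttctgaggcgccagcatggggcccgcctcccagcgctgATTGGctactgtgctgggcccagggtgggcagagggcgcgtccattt
Ebp: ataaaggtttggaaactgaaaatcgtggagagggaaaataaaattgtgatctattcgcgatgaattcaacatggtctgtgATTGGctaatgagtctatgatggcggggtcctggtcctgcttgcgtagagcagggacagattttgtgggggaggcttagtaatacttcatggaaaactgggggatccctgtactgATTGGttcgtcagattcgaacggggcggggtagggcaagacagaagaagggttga
Hmgcs1: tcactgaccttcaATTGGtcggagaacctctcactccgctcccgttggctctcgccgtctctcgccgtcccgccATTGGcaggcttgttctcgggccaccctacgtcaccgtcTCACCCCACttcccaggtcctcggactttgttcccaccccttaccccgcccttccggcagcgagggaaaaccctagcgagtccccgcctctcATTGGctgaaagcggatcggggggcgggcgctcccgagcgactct

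Promoter windows were at hand for 25 of the 32 genes, 33 windows in all, since a few genes have several start sites. CCAAT on either strand was found upstream of 8 of 8 late sterol genes (8 of their 10 windows), 6 of 7 early sterol genes, 4 of 5 regulator genes and 1 of 5 lipogenic genes. Of all genes with a window, 37.5% held it, and of all windows 33.8%. The Sp1 letters CCGCCC, on either strand, were found for 8 of 8 late, 6 of 7 early, 5 of 5 regulator and 2 of 5 lipogenic genes, against 35.4% of all genes. A CCGCCC box can run into a CCAAT box, and such overlaps were not counted apart. The core TCACNCCAC was found for Hmgcs1 alone among the members, and for 1.22% of all genes. These matches are letters in a window and were not compared with binding data, and the base composition of the windows was not matched.

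After FGF2 withdrawal with SU5402, genes for most steps of cholesterol synthesis were higher, 6 of 10 early and 8 of 8 late sterol genes, and the late sterol steps more so than the early ones on the brightest probe of each gene. Of the 32 genes, 24 were called higher and 2 lower (Acaca and Srebf2), and 6 did not pass limma's test at an adjusted p under 0.05. Among the called genes, Hmgcs1, Dhcr7, Insig1, Srebf1 and Srebf2 turned sign under at least 1 other normalization or probe choice, and no direction is given for Srebf1 and Srebf2. With the mean of all kept probes, neither Acaca nor Srebf2 was called, and Fasn was the 1 member called lower. The background is high: 37.5% of all genes tested rose and 30.9% fell, 68.4% in either direction. Rises made up 54.8% of all called genes, and 41.6% with uncentred scanner signals, which put 18 members and 5588 of the 18436 genes tested higher. With loess, the median log2 ratio of the 32 members was 0.43, against 0.022 over all genes tested. At least 2-fold rises were seen in 8 members, compared with 11.7% of all genes tested, and at least 2-fold falls in 0 members, compared with 1.65% of all genes. The lowest member was Acaca, at -0.31. Treated and control levels did not overlap in 25 of the 32 genes, where 61.2% of all genes tested had no overlap. Every fold rests on RNA of whole cultures, in which fewer cells of a type and less RNA per cell cannot be told apart.

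**Figure D1:**
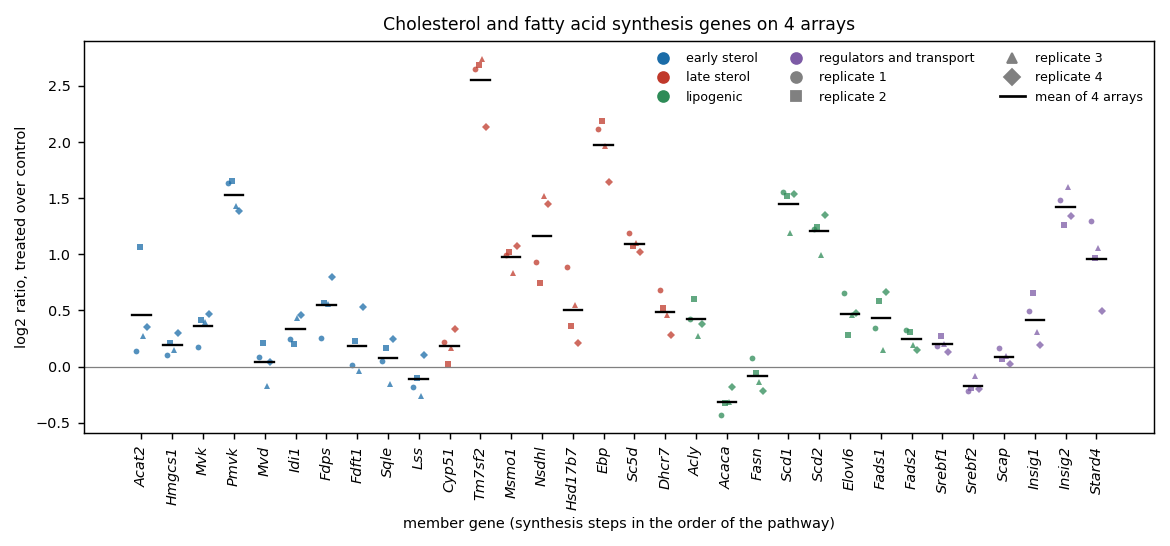
Log2 ratio of treated over control (vertical axis) for each of the 32 genes (horizontal axis), with 1 point per array and a bar for the mean of 4 arrays, coloured by role. Tm7sf2 and Ebp have the highest means, 2.55 and 1.98, and the Acaca points lie between -0.44 and -0.18.

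The late sterol genes rose in 8 of 8 cases, with a median log2 ratio of 1.04 and a range from 0.19 to 2.55. Tm7sf2, a sterol C14 reductase that acts right after the lanosterol demethylase, changed most. Its log2 level was 11.28, 11.05, 11.26 and 11.76 in the control samples of replicates 1 to 4 and 13.93, 13.74, 14.00 and 13.89 in the treated samples. All treated samples stood above all control samples, and the control of replicate 4 was the highest of its group. The ratio was 5.88-fold (log2 2.55, SE 0.105, n = 4, limma adjusted p = 6.11e-08). Tm7sf2 was above 99.2% of all genes tested. Its only probe lies on chromosome 19 at 6062882 to 6062941 (mm9).

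Ebp, the sterol isomerase that moves a double bond in the B ring, followed. Control levels were 12.63, 12.53, 12.69 and 12.84, and treated levels were 14.74, 14.72, 14.65 and 14.49. The groups lay 1.65 apart at their closest, and the rise was 3.94-fold (log2 1.98, SE 0.0943, n = 4, limma adjusted p = 1.53e-07). This gene too has a single probe, on the X chromosome at 7762463 to 7762522 (mm9).

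Nsdhl and Sc5d rose a little over 2-fold. Nsdhl, a dehydrogenase that helps remove the methyl groups at C4, had control levels of 12.71, 12.64, 11.93 and 12.28 and treated levels of 13.64, 13.39, 13.44 and 13.72. The control samples were spread more widely than the treated ones, and the log2 ratio was 0.93, 0.75, 1.52 and 1.44 on the 4 arrays (2.23-fold, SE 0.127, n = 4, limma adjusted p = 3.77e-05). Its other 3 kept probes gave smaller values, 0.55, 0.65 and 0.18, the last not called. Sc5d, the desaturase that introduces the C5 double bond, had the narrowest range of ratios among the late genes, at 1.19, 1.07, 1.103 and 1.02. It was 2.14-fold higher (limma adjusted p = 7.58e-07), and its second probe gave nearly the same value, 1.07 (SE 0.0846).

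Msmo1, the C4 methyl oxidase that works beside Nsdhl, was just short of 2-fold. Control levels of 15.11, 15.35, 15.35 and 15.15 stood against treated levels of 16.10, 16.37, 16.18 and 16.22, with no overlap (1.97-fold, limma adjusted p = 2.33e-06). Hsd17b7, the reductase that completes the C4 demethylation, had ratios of 0.88, 0.36, 0.54 and 0.21 and a mean of 0.50 (SE 0.106). Dhcr7, which reduces the C7 double bond in the last part of the pathway, had ratios of 0.68, 0.52, 0.46 and 0.28 and a mean of 0.49 (SE 0.0806), whereas its second probe was at -0.025 (SE 0.0918). These 2 genes also did not overlap between groups.

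Cyp51, the lanosterol demethylase that opens the late pathway, moved least of the late genes. Its ratio was 0.22, 0.025, 0.17 and 0.33 on the 4 arrays, a mean of 0.19 (SE 0.0744, limma adjusted p = 0.0494). The call ended without replicate 1, 3 or 4 (limma adjusted p = 0.135, 0.0892 and 0.158). The other 2 probes of Cyp51 gave 0.36 and 0.48, both called higher, so the brightest probe held the lowest value. After median centring instead of loess, Cyp51 and Dhcr7 lost their calls (limma adjusted p = 0.24 and 0.0879) while the other 6 late genes kept them.

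Among the early sterol genes 6 of 10 rose, 0 fell (0 also at an unadjusted limma p under 0.05) and 4 did not pass, with a median log2 ratio of 0.26. Pmvk, the second kinase of the mevalonate pathway, was the exception in size. Its control levels were 12.85, 12.90, 13.001 and 13.15 and its treated levels 14.48, 14.55, 14.43 and 14.54. The rise was 2.88-fold (log2 1.52, SE 0.0755, n = 4, limma adjusted p = 1.91e-07), and a neighbouring probe 60 bases upstream gave 1.39. Both probes lie on chromosome 3, between 89272679 and 89272798 (mm9).

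The remaining early rises were small. Fdps, which makes farnesyl diphosphate, had ratios of 0.26, 0.57, 0.56 and 0.79, a mean of 0.54 (SE 0.0905). Its other probe was at 0.22 and not called (limma adjusted p = 0.0508). Mvk, the first kinase on mevalonate, was at 0.36 on the brightest and 0.48 on its other probe. Idi1, the isomerase that makes the reactive isoprene unit, was at 0.33 (SE 0.0747) on the brightest probe. Its other probe was at 0.13 and not called (limma adjusted p = 0.265). The files place both Idi1 probes on chromosome 2, near 53553575 (mm9), whereas the RefSeq promoter of Idi1 is on chromosome 13, and which copy gives the signal was not tested. Acat2, the cytosolic thiolase at the entry of the pathway, had ratios of 0.14, 1.07, 0.27 and 0.36, with replicate 2 well above the others (mean 0.46, limma adjusted p = 0.0144). Without replicate 2 the mean was 0.26 (limma adjusted p = 0.0364). Its groups overlapped, and the call ended when the channels were fitted as separate samples (limma adjusted p = 0.10).

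Hmgcs1, the synthase that precedes mevalonate, was among the brightest members and rose by very little. Its control levels were 16.04, 15.99, 16.04 and 15.83 and its treated levels 16.15, 16.19, 16.19 and 16.13, a mean ratio of 0.19 (SE 0.0687, limma adjusted p = 0.0338). Leaving out replicates 1, 2, 3 or 4 ended the call each time, with limma adjusted p between 0.0535 and 0.105. The other kept Hmgcs1 probes were at -0.080, not called, and at 0.34, called higher. After median centring instead of loess, Hmgcs1 stood at -0.15, and Idi1 and Fdps lost their calls (limma adjusted p = 0.80 and 0.0954). Mvd and the last steps to lanosterol did not pass on their brightest probes. Fdft1, squalene synthase, was at 0.18 (SE 0.0987), and Sqle, the squalene epoxidase that limits flux into sterols, at 0.076 (SE 0.0818). Lss, the cyclase that forms lanosterol, was at -0.11 (SE 0.0789), and Mvd, the decarboxylase of the mevalonate pathway, at 0.040 (SE 0.0788). For Sqle the ratios were 0.049, 0.16, -0.16 and 0.25, and the levels overlapped, from 15.40 to 15.70 in the controls and from 15.55 to 15.77 in the treated samples. With the mean of all kept probes, Fdft1 was called higher at 0.63 (limma adjusted p = 3.75e-05) and Lss at 0.31 (limma adjusted p = 0.00356). With uncentred scanner signals, Lss was called lower at -0.30 (limma adjusted p = 0.0147), so no direction is given for Lss. A miss of the threshold does not show that these genes were equal between groups.

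The lipogenic genes split. Of 8 genes, 6 rose, Acaca fell and Fasn did not pass, with a median log2 ratio of 0.43. The desaturases that place the first double bond in saturated fatty acids, Scd1 and Scd2, rose most. Scd1 had control levels of 12.32, 12.22, 12.43 and 12.11 and treated levels of 13.87, 13.74, 13.62 and 13.65 (2.73-fold, log2 1.45, SE 0.0820, limma adjusted p = 4.38e-07). Scd2 had control levels of 16.14, 16.15, 16.25 and 15.97 and treated levels of 17.36, 17.39, 17.25 and 17.32 (2.30-fold, log2 1.20, SE 0.0774, limma adjusted p = 1.00e-06). The groups lay 1.19 apart in Scd1 and 0.997 apart in Scd2, and replicate 3 gave the smallest ratio of the 4. They are close relatives, each has a single probe, and whether a probe also catches the transcript of the other gene was not tested.

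Among the enzymes that supply or build the chain, Acly was called higher, and Acaca was called lower on its brightest probe only. Acly, which makes cytosolic acetyl-CoA from citrate, was at 0.42 (SE 0.0762). Acaca, acetyl-CoA carboxylase, had ratios of -0.44, -0.32, -0.32 and -0.18 (mean -0.31, SE 0.0712, limma adjusted p = 0.00353). A dimmer Acaca probe was called higher at 0.29, and 2 others, at -0.084 and -0.032, were not called. Acaca was the member with probes called in both directions, and median centring instead of loess ended its call (limma adjusted p = 0.177). The mean of its kept probes was -0.034 and not called (limma adjusted p = 0.662). Fasn, fatty acid synthase, was at 0.075, -0.061, -0.14 and -0.22 on the 4 arrays, a mean of -0.085 (SE 0.0737, limma adjusted p = 0.329). Its second probe was called lower at -0.35, and the mean of both at -0.22 (limma adjusted p = 0.0162). The brightest probe was at -0.55 with median centring (limma adjusted p = 0.00819) and at 0.21 with median-centred scanner signals (limma adjusted p = 0.0383), so no direction is given for Fasn.

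The enzymes that elongate and desaturate fatty acids rose by modest amounts. Elovl6, which lengthens palmitate, was at 0.47 (SE 0.0781), and Fads1 and Fads2, the desaturases of polyunsaturated fatty acids, at 0.44 (SE 0.0930) and 0.24 (SE 0.0691). Fads1 levels overlapped between groups, from 12.21 to 12.77 in the controls and from 12.71 to 12.97 in the treated samples. The call of Fads2 ended without replicate 1 or 2 (limma adjusted p = 0.0554 and 0.0578) and with median centring (limma adjusted p = 0.23).

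**Figure D2:**
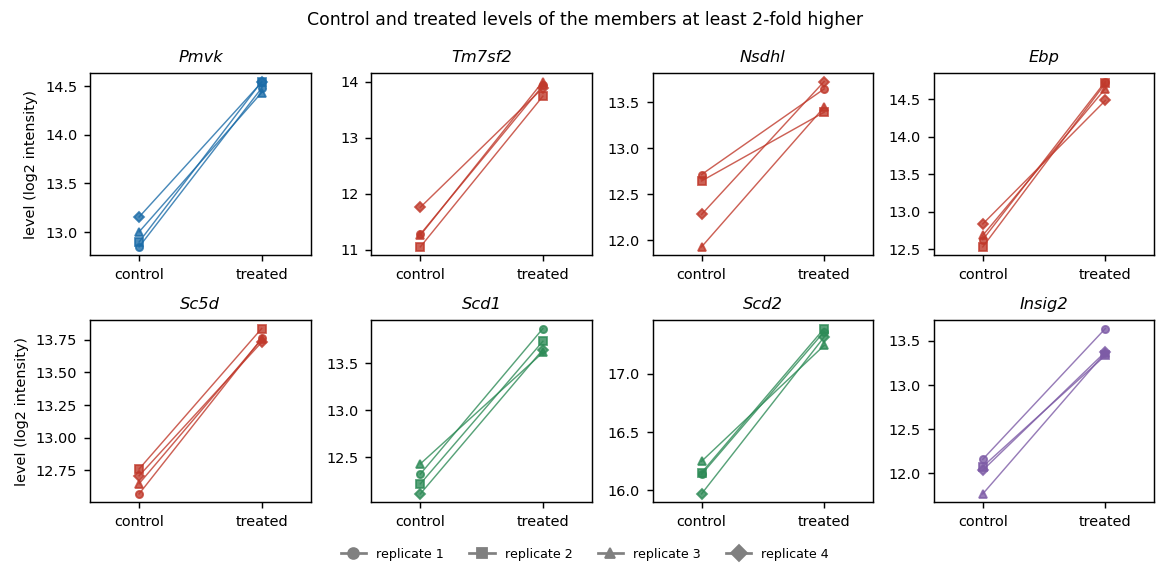
Log2 intensity levels (vertical axis) of the 8 genes that were at least 2-fold higher, in the control and the treated sample of each array (horizontal axis), with a line joining the samples of an array. Each panel has its own scale, and in every panel the 4 treated points lie above the 4 control points; the closest groups are those of Nsdhl, 0.68 apart.

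The genes that set SREBP activity did not move as a block. Insig2, which holds the SREBP complex in the endoplasmic reticulum, had control levels of 12.16, 12.08, 11.77 and 12.04 and treated levels of 13.64, 13.34, 13.37 and 13.38. It was 2.67-fold higher (log2 1.42, SE 0.0779, n = 4, limma adjusted p = 3.63e-07), and its other probe gave 1.51 (SE 0.0872). Insig1, its relative and a known SREBP target, had ratios of 0.49, 0.66, 0.31 and 0.19 on the brightest probe (mean 0.41, SE 0.0877, limma adjusted p = 0.00244). Its second probe was at -0.17 and not called, and the mean of both ended the call (limma adjusted p = 0.243).

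Srebf1 and Srebf2, the SREBP genes themselves, passed the test narrowly, with mean ratios of opposite sign. Srebf1 had ratios of 0.18, 0.27, 0.20 and 0.13 (mean 0.20, SE 0.0667, limma adjusted p = 0.0251). Srebf2 had ratios of -0.22, -0.20, -0.086 and -0.20 (mean -0.17, SE 0.0667, limma adjusted p = 0.0418). The call of Srebf1 ended without replicate 1, 2 or 3 (limma adjusted p = 0.0675, 0.112 and 0.0564), and that of Srebf2 without replicate 1, 2 or 4 (limma adjusted p = 0.131, 0.127 and 0.0849). The other 3 Srebf2 probes were at 0.18, 0.20 and 0.26, the last called higher, and Srebf1 stood at -0.19 with median centring. No direction is therefore given for either gene. Scap, the escort of SREBP, had ratios of 0.16, 0.065, 0.091 and 0.021 and did not pass (limma adjusted p = 0.283).

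Stard4, which carries cholesterol between membranes, was 1.94-fold higher on its brightest probe (log2 0.96, SE 0.117, limma adjusted p = 7.58e-05). The ratio was 1.298, 0.97, 1.06 and 0.50 on the 4 arrays, lowest on replicate 4, and the groups did not overlap. Its other 2 probes, farther upstream in the gene, gave 0.12, which was not called, and 0.18, which was (limma adjusted p = 0.0493).

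Set side by side, the late sterol genes had the highest median on every array. Their medians were 0.96, 0.88, 0.97 and 1.05 on replicates 1 to 4, those of the early sterol genes 0.12, 0.22, 0.21 and 0.41, and those of the lipogenic genes 0.39, 0.45, 0.23 and 0.43. The median of the regulators and Stard4 lay between 0.16 and 0.47. Late minus early medians differed by 0.72 ± 0.091 (SD, n = 4 arrays), and late minus lipogenic by 0.59 ± 0.12. Early minus lipogenic was -0.13 ± 0.13, a difference about the size of its spread. These are descriptions of a chosen set, with no p-value.

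**Figure D3:**
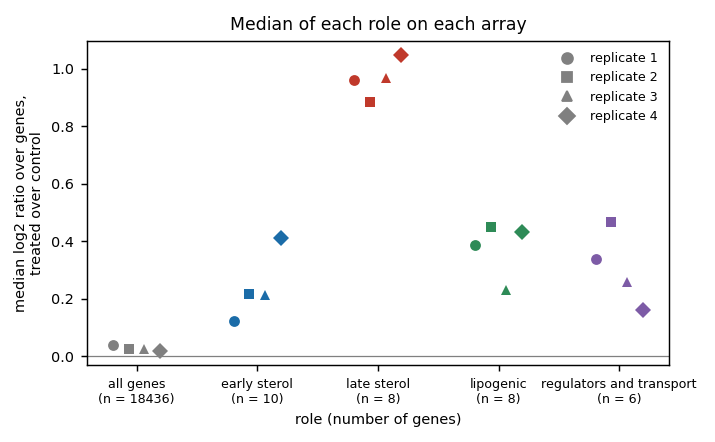
Median log2 ratio over the genes of each role (vertical axis) on each of the 4 arrays (symbols), with all tested genes at the left. The late sterol medians lie between 0.88 and 1.05, above every other median, and all genes together stay between 0.018 and 0.038.

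This order depends in part on the choice of probe. With the mean of all kept probes, the late median was 0.81 and the early median 0.34. Tm7sf2, Ebp and Msmo1 have 1 probe each, so they have no second measurement here. Over the 5 late and 7 early genes with at least 2 kept probes, the brightest probes gave medians of 0.50 and 0.33, and the second brightest gave 0.36 and 0.48, the other way round. Counting every kept probe, 13 of 16 late sterol probes were called higher and 0 lower (median 0.52), 11 of 19 early probes higher and 0 lower (median 0.33), and 7 of 12 lipogenic probes higher and 2 lower (median 0.27). For the other roles 7 of 13 probes were called higher and 0 lower (median 0.20). At an unadjusted limma p under 0.05, 1 early probe (of Lss) and 1 regulator probe (of Srebf2) were lower, and 0 late probes. Calls of single probes are adjusted over 27693 probes, and the share of these called was not counted. With this adjustment the brightest probes of Srebf2 and Cyp51, called in the fit over genes, were not called (limma adjusted p = 0.0504 and 0.0572). Over all genes tested, on the brightest probe of each, 37.5% rose and 30.9% fell.

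Probes of a gene often differed. Of 18 members with at least 2 kept probes, 5 had every probe called higher: Mvk, Pmvk, Hsd17b7, Sc5d and Insig2. In 12 others at least 1 probe was called higher and at least 1 was not, and Fasn had none called higher. Lss held the widest gap. Its probe at 76015992 to 76016051 on chromosome 10 was at -0.11 and that at 76013409 to 76013468 at -0.21, neither called, while the probe at 76019513 to 76019572, designed on a separate cDNA record, was at 1.24 (SE 0.0789, all mm9). In Fdft1 the bright probe gave 0.18 and a much dimmer one, farther downstream on chromosome 14 at 63764562 to 63764621, gave 1.07 (SE 0.0889). Which transcript each of these probes measures was not tested.

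**Figure D4:**
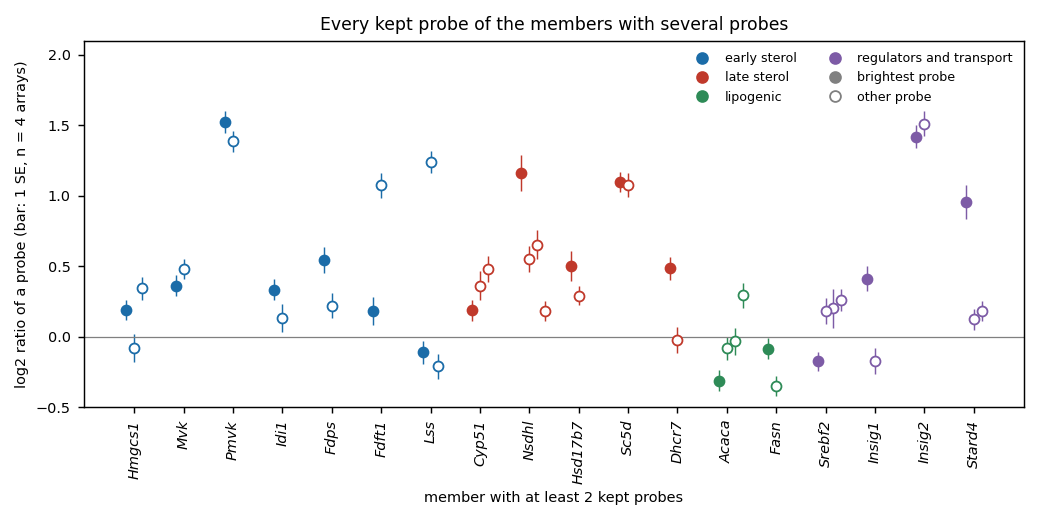
Log2 ratio of every kept probe (vertical axis, bars 1 SE over 4 arrays) for the 18 members with at least 2 kept probes (horizontal axis), filled for the brightest probe and open for the others. The probes of Sc5d and Insig2 lie within 0.1 of each other, and those of Lss span 1.45.

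Other genes of sterol and lipid handling, from lists chosen by function, were read from the same fit. Over all genes tested, 37.5% rose and 30.9% fell, and the counts below stand against these shares. Of 13 genes of sterol uptake, storage and efflux, 10 rose and 1 fell, with a median log2 ratio of 0.91. They included the lipoprotein receptor Lrp8 (3.01, SE 0.0719), Soat1, which esterifies cholesterol for storage (1.48, SE 0.0672), and the lysosomal lipase Lipa (1.43, SE 0.0729). Of 7 genes of SREBP processing and turnover, 2 rose and 3 fell, with a median of 0.075. Erlin1, an SREBP regulator in the membrane of the endoplasmic reticulum, was at -0.68 (SE 0.0912), and Paqr3, a Golgi anchor of the SREBP complex, at -0.62 (SE 0.0756).

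The isoprenoid branch, which uses farnesyl diphosphate for other products, went both ways, as did all genes tested (37.5% rose and 30.9% fell). Of its 11 genes 10 were tested, 3 rose and 4 fell, with a median of -0.067. Dhdds, which makes the dolichol backbone, was at -0.68, and the subunits of the prenyl transferase for Rab proteins were at -0.65 (Rabggta) and 0.61 (Rabggtb). Of 22 other genes of fatty acid and glycerolipid synthesis 21 were tested, 7 rose and 7 fell, with a median of 0.043. Me1, the malic enzyme that supplies NADPH, was 2.57 higher on the log2 scale (SE 0.0935). Mid1ip1, an activator of acetyl-CoA carboxylase, was at 1.58 and the acyl-CoA ligase Acsl4 at 1.399. The lists for the isoprenoid branch and for other lipid synthesis thus sat near the median of all genes, 0.022, and the uptake and storage list above it.

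Marker genes of other cell types moved on the same arrays, where 37.5% of all genes tested rose and 30.9% fell. Of 10 spermatogonial markers 9 were tested (Zbtb16 had no kept probe), 0 rose (all 9 mean ratios were below 0) and 6 fell, with a median log2 ratio of -0.33. Their summed intensity was 323358 to 363794 in the control samples and 225005 to 258032 in the treated samples. Sertoli cell markers rose in 8 of 8 cases, with sums of 16395 to 19428 in the controls and 147961 to 157603 in the treated samples. Of 8 fibroblast and feeder cell markers 7 rose and 0 fell (all mean ratios were above 0), with sums of 535574 to 606151 and 1358500 to 1461600. Of 8 Leydig and peritubular markers 7 were tested (Insl3 had no kept probe), 6 rose and 1 fell, with sums of 56253 to 63332 and 213441 to 258142. Every such sum leans on the brightest probes of its list. Here Acta2 carried most of it, with mean log2 levels of 15.63 in the controls and 17.62 in the treated samples. The list includes Cyp11a1, the enzyme that turns cholesterol into the first steroid, at 1.67, and Star, which delivers cholesterol to it, at 1.06. The 1 gene that fell was Cyp17a1, at -0.34 (limma adjusted p = 0.00778). Macrophage and leukocyte markers fell in 8 of 8 cases, with sums of 122650 to 146951 and 51390 to 64228. Of 6 adipocyte markers 5 were tested (Lep had no kept probe), 3 rose and 1 fell, with sums of 5207 to 6432 in the controls and 17612 to 20089 in the treated samples. Fabp4 carried most of that sum, with mean log2 levels of 12.12 in the controls and 14.06 in the treated samples. The other tested markers had mean control levels of 7.07 to 9.01. Fabp4, the fatty acid carrier of fat cells, was at 1.93, the lipid droplet coat gene Plin1 at 0.68 and Pparg, a regulator of fat cell formation, at 0.44. Cidec, another droplet gene, was at -0.29, and Adipoq, the fat cell hormone adiponectin, was at -0.14 and not called. The part of these cell types in the rise of the sterol and fatty acid genes was not tested.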

How the data were processed

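The authors deposited intensity values on a linear scale for 45018 spots per array, namely mean, local background and processed signals. The scanner software was Agilent Feature Extraction 10.5.1.1, per the submitters' processing notes. The deposited LogRatio, log10 of red over green, was only compared with the authors' table of values. That table, deposited as log2 values with no stated scale, equalled log2 of green over red processed signal within 0.001 for at least 99.7% of 41174 probes, which is treated over control, uncentred.

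Signals were background-corrected (normexp, offset 50) and normalized within arrays by loess, with control spots left out of the loess fit. Outlier spots were dropped after normalization. Probes measured on all 4 arrays were kept if one channel was well above background on 3 or more (27693 of 41174). The brightest probe stood for a gene, giving 18436 genes. Gene names were updated through RefSeq (GRCm38.p6). Ratios were set against 0 in limma 3.58.1 (lmFit, then eBayes; R 4.3.3, data.table at version 1.17.8), two-sided, with Benjamini-Hochberg adjustment over all genes and SE from that fit. The procedure was tested on simulated data, with 50 genes changed at each fold. It recovered 20% at 1.25-fold, 56% at 1.5-fold, 84% at 2-fold and 100% at 4-fold. There 135 genes were called, 5 of them falsely, against 12619 called in the data, so these shares need not hold here. Levels are log2 intensities after loess and Aquantile scaling, and are not comparable between probes. The number of arrays limits the precision (median SD between arrays 0.15 on the log2 scale), and loess sets each ratio against the other probes of like brightness on its array. The design text calls the replicates biological.

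All 32 members are described. Per-array values were given for members with a log2 ratio of at least 1, the late sterol genes, the regulators and genes with probes called in both directions, and for others where a result turned on them, chosen after their values were seen. From each of the 4 pathway lists the 3 genes with the smallest adjusted p are named (1 is not reported here). Cell type marker lists are given by counts and sums. All tested adipocyte markers and Cyp11a1, Star, Cyp17a1 and Acta2 were named after their values were seen. The members and lists were chosen with earlier results of these data known. Alternatives covered normalization, background, filter, probe choice, pairing and leaving out each array.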

Additional observations from a re-analysis of the deposited data

Results flagged for a closer look

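In 3 of the 32 members 1 array stood apart from the other 3 by Dixon's criterion, which chance meets in about 5% of groups of 4. Tm7sf2 had a log2 ratio of 2.13 on replicate 4, against 2.65 to 2.74 on the others. Scd1 had 1.19 on replicate 3, against 1.52 to 1.55. Srebf2 had -0.086 on replicate 3, against -0.22 to -0.20. Each of these values kept the sign of the other arrays.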

How the results depend on the processing

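The ratio within an array is the pairing, and fitting the channels as separate samples with no replicate block gave 12141 genes called (12619 with the pairing), 23 members higher and 2 lower. Of 18436 genes tested, 6675 were higher in that fit. Leaving out each array gave 11432 to 12123 genes called, 20 to 22 members higher and 1 to 2 lower, with medians of 0.22 to 0.30 for early sterol, 1.01 to 1.03 for late sterol and 0.37 to 0.47 for lipogenic genes. In these fits 6438 to 6737 of the 18436 genes tested were higher and 4994 to 5386 lower. Mvd ranged from -0.016 (without replicate 2) to 0.11. Median centring in place of loess gave 17 members higher, an early median of 0.051 and a late median of 0.90, and put Hmgcs1 at -0.15, Sqle at -0.20, Srebf1 at -0.19 and Scap at -0.20. It put 5491 of 18436 genes tested higher and 3571 lower, and moved the share of higher among all called genes from 54.8% to 60.6%. Scanner signals uncentred, which moved the median of all genes from 0.022 to -0.12, gave 18 members higher, a late median of 0.92 and a lipogenic median of 0.25, with Mvd at -0.13, Sqle at -0.018 and Fasn at 0.10, and 41.6% of called genes higher. Lss was called lower at -0.30. These signals put 5588 of 18436 genes tested higher and 7852 lower. They ended the calls of Acat2, Mvk, Cyp51, Fads1, Fads2, Srebf2 and Insig1. Median-centred, they gave 1 member and 6370 of 18436 genes tested lower, with Mvd at -0.021 and Fasn at 0.21. The mean of all kept probes gave 1 member lower (Fasn, at -0.22), where 5725 of 18436 genes tested were lower, and a late median of 0.81. With it Lss was called higher at 0.31, Fdft1 called higher at 0.63, Acaca not called at -0.034 and Srebf2 at 0.12. Second brightest probes, with 18 members and fewer genes to test, gave 4251 genes called, 9 members higher and 1 lower, and medians of 0.48 (early), 0.36 (late) and -0.22 (lipogenic, 2 genes). Of 6593 genes tested on these probes, 2473 were higher and 1778 lower. On them Hmgcs1 was at -0.080, Lss at 1.24, Dhcr7 at -0.025, Srebf2 at 0.18 and Insig1 at -0.17. The cause of these shifts was not tested. No background correction, no filter and a stricter filter each gave 23 or 24 members higher and 2 lower. In turn, 6955 of 18436, 7275 of 27643 and 6217 of 16554 genes tested were higher. Signals of all kept member probes but those of 1 dim Acaca probe were well above background on every array in both channels.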
